A study of Mus musculus with 10 samples.

Results

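Single-cell RNA counts from mouse kidney cortex were used to ask what had not returned to the control level 14 days after injury. The cells came from the libraries labelled day 14 replicate 1, day 14 replicate 2 and control, and every barcode with at least 500 detected genes and at most 50% mitochondrial UMIs was kept. A UMI is a molecular tag that marks 1 captured RNA molecule. These rules kept 19258 cells of 52797 in all 10 libraries: 6134 of the control, 6941 of day 14 replicate 1 and 6183 of day 14 replicate 2. The other libraries were taken on days 1, 2, 4, 7 and 11. They entered the statistical fits, where the replicated days 7, 11 and 14 set the spread.

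The control was made from normal kidneys and the day 14 libraries from injured kidneys, all from cortex of mice given as 4 weeks old. The labels name no strain, sex, injury procedure or preparation date, and they do not say whether the 2 day 14 libraries came from separate animals. The p-values below therefore measure only the spread between libraries, which may be technical. The control is 1 library and was assumed to vary like the replicated days, so a peculiarity of that library and a lasting effect of injury cannot be told apart by the fit.

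The proximal tubule reabsorbs most of the filtered glucose, amino acids and phosphate and is the part of the nephron most often damaged in acute kidney injury. Damaged proximal cells lose transporters and switch on injury genes such as Havcr1 (kidney injury molecule 1), and surviving cells then rebuild the epithelium. The thick ascending limb, the distal convoluted tubule and the principal and intercalated cells of the collecting duct follow downstream and set the final salt, water and acid content of urine.

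Cells were sorted into classes with 12 fixed marker lists, such as Slc34a1 and Lrp2 for proximal tubule or Slc12a1 and Umod for thick ascending limb. A class here is a range of marker content above a set level rather than a proven cell type. The control library held 31632205 UMIs, day 14 replicate 1 held 22341141 and replicate 2 held 19953772. Median UMIs per cell were 2661.5, 1998 and 2030 in the same order, and the median mitochondrial share was 23.6%, 16.2% and 18.7%. Both quantities thus moved with the groups. In proximal tubule-like cells 454 genes rose and 622 fell after each cell was thinned to 1000 UMIs, and 550 and 670 with at most 25% mitochondrial UMIs, against 631 and 782 without these steps. In the other classes the gene tests were not run on thinned cells. The control and day 14 replicate 1 shared 1 barcode, the 2 day 14 libraries shared 2, and the control and replicate 2 shared 0. Doublets were removed only where a barcode passed 2 or more marker lists, because the automatic doublet caller marked at most 0.111% of the cells of a library.

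Within gated proximal cells the proximal markers had a median of 2.30% of non-mitochondrial UMIs in the control, and the median of each other class's markers was 0 in all 3 libraries. The gate admits only cells above a proximal level and leaves out those that passed another list. These medians are therefore largely set by the gate and do not measure RNA from other cells. Of the 3590, 5031 and 4492 gated proximal cells, 48, 55 and 26 lay within 25% above the level that admitted them.

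The makeup of the tissue was compared first, as shares of all kept cells, with exact 95% binomial intervals that cover counting error only. The control held 58.5% proximal tubule-like cells (57.3 to 59.8), day 14 replicate 1 held 72.5% and replicate 2 held 72.7%. The mean on day 14 was 72.6% ± 0.119 (SD, n = 2), or 1.24 times the control. Thick ascending limb-like cells went the other way, with 11.8% of the control (11 to 12.7), 5.91% of replicate 1 and 6.44% of replicate 2, a ratio of 0.521. Stromal-like cells, recognised by collagen and pericyte genes, numbered 92 of 6134 cells in the control and 27 and 16 on day 14, which were 0.389% and 0.259% of those libraries.

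Podocyte-like cells were 1.01%, 0.519% and 0.226%, from 62, 36 and 14 cells, a ratio of 0.369. Distal convoluted tubule-like cells were 5.51%, 4.93% and 3.90%. Principal-like cells were 3.67%, 3.86% and 5.60%, so replicate 1 was near the control and replicate 2 above it. Barcodes that passed 2 or more lists, which were left out, were 6.46%, 3.21% and 3.74% of kept cells. The principal list was passed by 395, 360 and 437 barcodes, of which 225, 268 and 346 stayed in the class. For the intercalated list 272, 155 and 121 passed, and 121, 102 and 73 stayed. The shares of these classes therefore depend on that rule. Intercalated-like cells were 1.97%, 1.47% and 1.18%, and endothelial-like cells were 4.79%, 3.60% and 2.75%. Macrophage-like cells numbered 46 of 6134 in the control and were 0.490% and 0.647% of the day 14 libraries, and neutrophil-like cells numbered 0 in each library. No share was tested; an exact permutation of 2 libraries against 1 cannot give a p below 0.333 (one-sided). Shares depend on which cells survived dissociation and filtering: 611 control barcodes were removed for mitochondrial content, against 265 and 261 on day 14. With at most 25% mitochondrial UMIs the control and mean day 14 shares were 4.46% and 3.22% for thick ascending limb-like cells and 62.3% and 76.6% for proximal tubule-like cells.

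**Figure D1:**
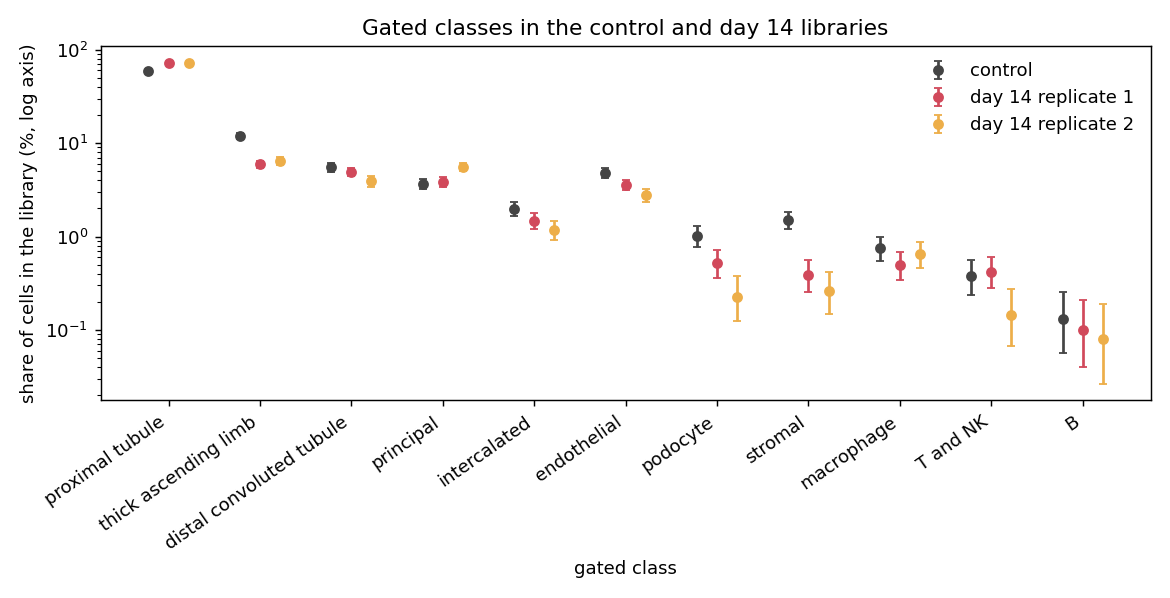
Share of kept cells in each gated class (percent, log axis) for the control and the 2 day 14 libraries, with exact 95% binomial intervals. Proximal tubule-like cells are at 58.5% in the control and at 72.5% and 72.7% on day 14, and thick ascending limb-like cells at 11.8%, 5.91% and 6.44%.

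Gene levels were then compared within each class on UMI counts summed over the cells of a library. Levels are given as CPM, the UMIs of a gene relative to all UMIs of the class and scaled by TMM library factors, always in the order control, day 14 replicate 1, day 14 replicate 2. A gene is said to have risen or fallen where the quasi-likelihood F test of edgeR gave a p, adjusted by Benjamini-Hochberg, of at most 0.05 and both day 14 libraries differed from the control by at least 1.5-fold in that direction. The marker genes of the gates were left out of these tests.

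Proximal tubule-like cells had the most changes: 631 genes rose (4.51% of 13992 tested) and 782 fell (5.59%). Of the 4236 genes with an average of at least 5 on the log2 CPM scale, 122 (2.88%) were at least 2-fold above the control in both day 14 libraries and 127 (3%) at least 2-fold below, while 22 (0.519%) differed 2-fold between the day 14 libraries themselves. The median log2 difference over all tested genes was 0.02. The counts moved with the libraries used: without day 14 replicate 2 there were 317 rises and 278 falls, and without one or the other day 7 library 1069 and 1058 rises. Only 73 rises and 65 falls were called in proximal cells with no UMI of straight-segment genes, which leaves 152, 261 and 281 cells.

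**Figure D2:**
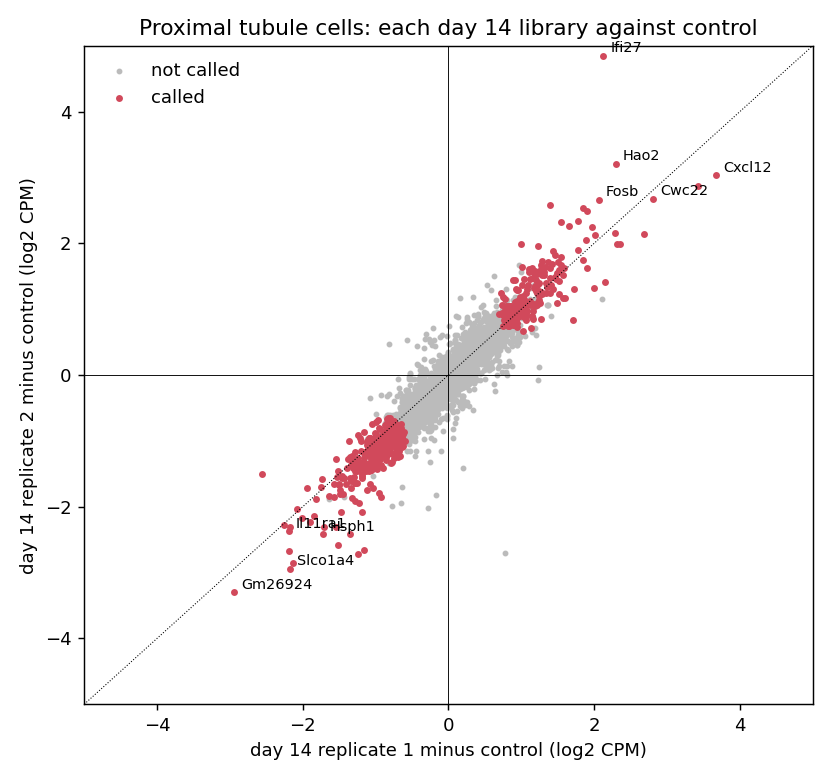
Each point is a gene in proximal tubule-like cells with an average of at least 5 log2 CPM; the axes give its log2 CPM difference from the control in day 14 replicate 1 (x) and replicate 2 (y), and the dotted line marks equal differences. Called genes, in red, lie along the dotted line in both directions, with Gm26924 lowest and Cxcl12 and Hao2 among the highest. The rule for a call requires both differences to have the same sign. Ifi27 stands above the line because replicate 2 had 307 CPM and replicate 1 46.6 CPM.

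Falls in proximal tubule-like cells included chaperones, the proteins that fold other proteins and are made in quantity under heat or oxidative stress. Of 26 heat shock genes tested, 12 fell and 1 rose, and 25 were below the control in both day 14 libraries, compared with 42.3% of all tested genes. Their median log2 difference was -0.87. Hspa1b, an inducible HSP70, had 42.8 CPM in the control and 2.69 and 1.89 CPM on day 14 (log2 difference -4.21, SE 0.30, adjusted p = 8.26e-06 by edgeR quasi-likelihood with the Benjamini-Hochberg method). Both day 14 libraries were far below the control and close to each other. Hspa1b was seen in 10.5% of control proximal cells and in 0.696% and 0.467% of those of day 14, or in 3.33%, 0.219% and 0.194% after thinning each cell to 1000 UMIs.

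Hsph1, a partner of HSP70 that helps it exchange nucleotide, went from 379 to 115 and 70.9 CPM (log2 difference -2.03, SE 0.28). The cytosolic chaperone Hsp90aa1 had 2471, 874 and 787 CPM, and the mitochondrial chaperonin Hspd1 had 2085, 892 and 807 CPM. Hspa5, which folds proteins in the endoplasmic reticulum, had 1738, 816 and 633 CPM. In each of these both day 14 values were below the control, which the rule for a fall requires. Cryab, a small heat shock protein also counted as an injury gene, was the exception that rose, from 10.6 to 33.6 and 31.0 CPM. Hspa8, the constitutive HSP70, did not pass, with 1378, 1102 and 838 CPM.

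Hsph1 and Hsp90aa1 were called under every alternative that was run, whereas without day 14 replicate 2 only 4 of the 12 falls in the list remained called. The summed level of the heat shock genes was 20375 CPM in the control and 10866 and 9249 CPM on day 14. It was between 8729 and 12576 CPM in every library of days 1 to 11. The control was therefore the highest of the 10 libraries, and a high control library and a lasting fall after injury cannot be told apart.

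Falls of chaperones were also found outside the proximal tubule. In endothelial-like cells 10 of 25 tested heat shock genes fell and 0 rose, where 0.972% of all 8541 tested genes fell. Hsph1 had 242, 28.0 and 38.4 CPM there (log2 difference -2.89, SE 0.44) and Dnaja1, an HSP40 co-chaperone, 1946, 557 and 701 CPM. DESeq2 called 1 of the 10, and Dnaja1 was called under every alternative. In distal convoluted tubule-like cells 7 of 25 fell, where 3.8% of all genes did, and Cryab rose, from 5.71 to 41.8 and 61.4 CPM. In thick ascending limb-like cells 3 of 26 fell (0.926% of all genes), in principal-like cells 1 of 26 (1.25%) and in intercalated-like cells 0 of 25 (0.227%). Of those 25, 19 were below the control in both day 14 libraries, against 37.1% of all genes in the class. Over the alternatives run, falls ranged from 0 to 10 in distal convoluted tubule-like and from 0 to 6 in thick ascending limb-like cells, with 0 in both by DESeq2.

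Promoters of the chaperone genes were searched for the core of the heat shock element, written here as GAANNTTC, which reads the same on both strands, in the 250 bases before each start in RefSeq (GRCm38.p6). It was present in 2199 of 32851 promoters (6.69%) and in 7 of the 21 heat shock genes that could be matched. A list gene counted if any of its promoters held a match, so these shares are not in the same unit. Hspd1 and Hspe1 are a divergent pair whose windows overlap, so both hold the same match. The windows of Hspa1a and Hspa1b are nearly identical in sequence, so their matches are not independent either. The promoters of Hspa1b and Hspd1 are shown because both genes fell in proximal tubule-like cells. They lie on the minus strand at chr17:34959239-34959488 and chr1:55087933-55088182, and capitals mark the single match in each. A match describes the letters and no binding was measured.
Hspa1b: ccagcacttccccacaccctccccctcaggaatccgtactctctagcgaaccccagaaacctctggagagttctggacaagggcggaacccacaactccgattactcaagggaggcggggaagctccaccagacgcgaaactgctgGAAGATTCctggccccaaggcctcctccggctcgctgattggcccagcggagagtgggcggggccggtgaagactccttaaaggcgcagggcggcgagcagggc
Hspd1: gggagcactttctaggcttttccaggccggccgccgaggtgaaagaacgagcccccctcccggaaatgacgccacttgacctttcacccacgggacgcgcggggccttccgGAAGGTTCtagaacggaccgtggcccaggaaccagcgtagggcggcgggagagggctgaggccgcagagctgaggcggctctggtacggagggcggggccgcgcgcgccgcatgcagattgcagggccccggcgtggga

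Immediate early genes, transcription factors and feedback regulators that cells switch on within minutes of a stimulus, gave 12 rises and 2 falls of 36 tested in proximal tubule-like cells, where 4.51% of all genes rose and 5.59% fell. Of the 36, 24 were above the control in both day 14 libraries and 8 below, against 42.1% and 42.3% of all tested genes, and the median log2 difference was 0.93. Fosb, a partner in the AP-1 dimer, had 23.1, 97.0 and 147 CPM (log2 difference 2.40, SE 0.32, adjusted p = 0.00103 by edgeR quasi-likelihood with the Benjamini-Hochberg method). Fos had 94.7, 212 and 264 CPM, Atf3 18.3, 47.2 and 60.3 CPM, and Dusp1, a phosphatase that ends MAP kinase signals, 97.5, 241 and 287 CPM. All 4 were higher in replicate 2 than in replicate 1, and in both higher than in the control, which the rule for a rise requires.

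The 2 that fell were Jund, an AP-1 member present in resting cells, with 249, 111 and 111 CPM, and Cebpb, with 18.0, 5.09 and 4.92 CPM. Egr1, at 38.8, 56.1 and 100 CPM, did not pass. Fosb was called under every alternative, but without day 14 replicate 2 only 4 genes of the immediate early list were called as higher, and without both day 11 libraries 8. Summed over the list, the control had 2760 CPM, the lowest of the 10 libraries, and day 14 had 3718 and 4269 CPM. The day 11 libraries stood at 5289 and 5563 CPM.

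In distal convoluted tubule-like cells 12 of 30 immediate early genes rose and 1 fell, where 1.91% of all 6897 tested genes rose and 3.8% fell. Zfp36, which destabilises inflammatory messenger RNAs, had 30.6, 108 and 146 CPM and was called under every alternative. Egr1 had 45.2, 134 and 129 CPM there. The number of rises was 1 with DESeq2 and 6 when cells above 25% mitochondrial UMIs were left out. In principal-like cells, where 0.955% of all genes rose and 1.25% fell, 0 of 36 rose and 4 fell, among them Jund at 487, 144 and 121 CPM and Egr1 at 1544, 851 and 863 CPM. Zfp36l1, an mRNA-decay factor, fell in principal-like cells from 659 to 149 and 165 CPM under every alternative.

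Genes of solute transport and endocytosis, which define the work of the proximal tubule, gave 13 rises and 0 falls of 52 tested in proximal tubule-like cells, where 4.51% of all genes rose and 5.59% fell. Of the 52, 37 were above the control in both day 14 libraries and 11 below, against 42.1% and 42.3% of all tested genes, and the median log2 difference was 0.48. The rises covered several kinds of solute. Slc6a19, the main carrier of neutral amino acids in the brush border, had 134, 312 and 350 CPM (log2 difference 1.31, SE 0.30). Slc7a9 and Slc7a8, light chains of amino acid exchangers, had 33.2, 90.0 and 123 CPM and 7.74, 31.4 and 44.6 CPM. The peptide carrier Slc15a2 had 27.0, 134 and 108 CPM.

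For phosphate, Slc34a3 had 6.18, 23.5 and 32.3 CPM. For sugars, the basolateral glucose carrier Slc2a2 had 28.3, 60.6 and 73.6 CPM and the fructose carrier Slc2a5 had 7.08, 24.7 and 25.8 CPM. The citrate carrier Slc13a2, with 18.8, 45.8 and 44.1 CPM, was called under every alternative. Every one of these was higher in both day 14 libraries, which the rule for a rise requires. The apical glucose carrier Slc5a2 (147, 255 and 366 CPM), the endocytosis receptor Cubn (84.4, 118 and 118 CPM) and the organic anion carriers Slc22a6 (957, 1417 and 1541 CPM) and Slc22a8 (67.5, 72.3 and 125 CPM) did not pass.

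Summed over the proximal transport and endocytosis genes, the control had 13624 CPM and day 14 had 16412 and 16593 CPM, the highest of the 10 libraries, with 14505 and 14461 CPM on day 11. The count of rises was 3 in the few cells with no straight-segment UMI and 9 without day 14 replicate 2. Proximal straight segment genes were higher in sum, at 5680, 8005 and 6910 CPM, but 1 of 11, Slc22a13, rose (15.1, 37.9 and 33.4 CPM), where 4.51% of all genes did.

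Genes of fatty acid oxidation, the main fuel pathway of this segment, and targets of the lipid sensor PPARα gave 7 rises and 0 falls of 41 in proximal tubule-like cells, where 4.51% of all genes rose, with a median log2 difference of 0.18. Pdk4, which turns pyruvate away from oxidation, had 3.05, 11.1 and 11.8 CPM, and Vnn1, a pantetheinase under PPARα control, had 19.5, 52.8 and 48.6 CPM. Both were called under every alternative that tested them. Angptl4, a lipase inhibitor, had 7.08, 28.7 and 37.5 CPM, and Acaa2, the last enzyme of mitochondrial β-oxidation, 34.5, 81.3 and 135 CPM. Most members of the list did not pass. Over the alternatives run, rises in the list ranged from 1 to 12 and falls from 0 to 2. Nuclear genes of the respiratory chain gave 1 rise and 0 falls of 59 in proximal tubule-like cells, where 4.51% of all genes rose, and 5 rises of 59 in principal-like cells, where 0.955% did. In principal-like cells 58 of the 59 were above the control in both day 14 libraries, against 39.2% of all genes, but leaving out either day 14 library reduced the 5 calls to 0 (without replicate 1) or 1 (without replicate 2).

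Most tubular injury genes did not differ from the control by the test in gated proximal tubule-like cells. The gate needs at least 5 UMIs of proximal markers such as Slc34a1 and Lrp2, so proximal cells that had lost these markers were outside the class. Injury genes were not examined in barcodes that passed no list or several lists. Havcr1 had 3.13, 3.97 and 5.83 CPM in proximal tubule-like cells, after 1175 CPM on day 1 and 789 and 195 CPM on day 7, and it did not pass (log2 difference 0.64, SE 0.69, adjusted p = 0.592 by edgeR quasi-likelihood with the Benjamini-Hochberg method). It was seen in 0.947% of control cells and in 1.01% and 1.14% of day 14 cells, and in 0 of 726, 410 and 398 thick ascending limb-like cells, which allows shares of cells with a UMI, not of cells that express the gene, of up to 0.413%, 0.732% and 0.754%. Lcn2, a secreted iron-carrier trap, had 0.165, 0.898 and 0.656 CPM and Vcam1 0.165, 0.599 and 0.903 CPM, each from 12 UMIs or fewer in a library, so a small difference was not detectable at this depth. Spp1 (osteopontin) had 45.1, 69.5 and 128 CPM and did not pass either. After thinning, the share of proximal cells with an Spp1 UMI was 4.53%, 7.37% and 9.58%, with both day 14 intervals above the control's. Thinned shares were 65.5%, 88.2% and 88.4% in thick ascending limb-like and 28.7%, 50% and 55.9% in intercalated-like cells, again above. In distal convoluted tubule-like cells they were 67.3%, 75.4% and 78.5%, and the interval of replicate 1 overlapped the control's. Endothelial-like cells had 5.73%, 6.11% and 9.68%, with overlapping intervals.

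Of the 35 tubular injury genes tested, 6 nevertheless rose and 0 fell, where 4.51% of all genes rose and 5.59% fell. In both day 14 libraries 21 were above the control and 8 below, against 42.1% and 42.3% of all tested genes. The median log2 difference was 0.63. Anxa5, a phospholipid-binding annexin, had 11.9, 58.3 and 53 CPM, and the calcium-binding S100a11 had 22.7, 77.7 and 84.3 CPM. Krt8, a keratin of simple epithelia, had 61.9, 128 and 132 CPM, and the others were Icam1, Anxa1 and Cryab. The summed level of the list was 627 CPM in the control, 834 and 915 CPM on day 14, 1215 and 1336 CPM on day 11 and 13305 CPM on day 1. Krt8 lost its call without either day 14 library, and none of the 6 was called in cells with no straight-segment UMI.

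In thick ascending limb-like cells 5 of 35 injury genes rose and 0 fell, where 0.987% of all 11449 tested genes rose. Lgals3 (galectin-3), called under every alternative, had 107, 309 and 333 CPM. Lcn2 had 5.44, 18.7 and 24.0 CPM, S100a11 73.9, 207 and 239 CPM, and Clu (clusterin, an extracellular chaperone) 33.1, 69.5 and 157 CPM. Without day 14 replicate 2 only 1 of the 5 was called. In principal-like cells Lcn2 had 35.3, 130 and 94.1 CPM and Spp1 597, 1426 and 1302 CPM. Both summed levels rose, and that of Spp1 did so under every alternative. The share of principal-like cells with an Spp1 UMI was 25.3%, 47.8% and 39.6%. For Lcn2 it was 8.44%, 9.70% and 10.7%, with overlapping exact binomial intervals. The Lcn2 rise was thus not matched by a clear rise in the share of cells with a UMI. In distal convoluted tubule-like cells 3 of 27 injury genes rose and 2 fell, where 1.91% and 3.8% of all genes did. Over the alternatives run, the median log2 difference of the list there ranged from 0.02 to 0.48, against -0.03 over all tested genes. Lgals3 rose there from 116 to 203 and 210 CPM, Cryab is given above, and Anxa3 rested on 0, 5 and 7 UMIs. Sox9, a transcription factor of repairing epithelium, fell from 23.9 to 5.42 and 4.24 CPM and Krt18 from 18.2 to 1.55 and 1.06 CPM, neither of which DESeq2 called.

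Fgg, the gamma chain of fibrinogen, remained above the control in proximal tubule-like cells, with 0.577, 8.91 and 14.4 CPM (log2 difference 4.29, SE 0.79, adjusted p = 0.00635 by edgeR quasi-likelihood with the Benjamini-Hochberg method). It had reached 805 CPM on day 1. Fgg belongs to a list of fibrinogen and acute phase genes, of which 2 of 9 tested rose and 0 fell. Over all tested genes 4.51% rose and 5.59% fell. In both day 14 libraries 3 of the 9 were above the control and 4 below, against 42.1% and 42.3% of all tested genes. The median difference of the list from the control was -0.28 in replicate 1 and -0.69 in replicate 2 (log2 CPM). The share of proximal cells with an Fgg UMI was 0.195% in the control and 2.19% and 3.03% on day 14, and 0.0876%, 0.856% and 1.26% after each cell was thinned to 1000 UMIs. No endothelial-like cell had one (0 of 294, 250 and 170, which allows shares of up to 1.02%, 1.2% and 1.76% by a limit of 3 cells), with median UMIs per cell of 1388.5, 1028 and 1036.5 against 2619, 2025 and 1992.5 in proximal cells. Thick ascending limb-like cells, with more UMIs, had an Fgg UMI in 0 of 726, 0 of 410 and 3 of 398 cells, and distal convoluted tubule-like cells in 0 of 338, 0 of 342 and 4 of 241 cells, or 1.66% in replicate 2. These limits concern cells with a captured UMI, not cells that express the gene. Aldh1a1, which makes retinoic acid, had 0.247, 15.1 and 9.68 CPM in proximal tubule-like cells and rose under every alternative, also in principal-like cells (31.3, 122 and 182 CPM).

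The MHC class I and II genes, which present antigen to T cells, had rises and no falls in each of the 6 classes. In proximal tubule-like cells 5 of 18 rose and 0 fell, where 4.51% of all tested genes rose, and 17 were above the control in both day 14 libraries, against 42.1% of all genes. Rises numbered 5 of 17 in thick ascending limb-like cells (0.987% of all genes), 2 of 14 in distal convoluted tubule-like (1.91%), 3 of 17 in principal-like (0.955%), 1 of 15 in intercalated-like (0.145%) and 3 of 18 in endothelial-like cells (0.597%). Over the alternatives run, these rises ranged from 2 to 7 in proximal tubule-like, 3 to 5 in thick ascending limb-like, 0 to 2 in distal convoluted tubule-like, 2 to 4 in principal-like, 0 to 2 in intercalated-like and 0 to 4 in endothelial-like cells. H2-K1, a class I heavy chain, had 48.6, 312 and 214 CPM (log2 difference 2.43, SE 0.34), and B2m, the light chain, 370, 1650 and 987 CPM. Psmb9, a subunit of the immunoproteasome, had 0.577, 2.69 and 2.46 CPM. Class II genes were uneven between the day 14 libraries: H2-Ab1 had 9.39, 84.9 and 19.1 CPM, and its chaperone Cd74, which did not pass, 6.26, 42.5 and 7.71 CPM. Macrophage markers averaged 0.00125%, 0.00121% and 0.00121% of the UMIs of these proximal cells, and the part of macrophage RNA in the class II levels was not tested.

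H2-K1 rose in all 6 classes, and under every alternative in proximal tubule-like, thick ascending limb-like and principal-like cells but not in the other 3. It had 98.2, 457 and 305 CPM in thick ascending limb-like cells, 61.3, 341 and 155 CPM in distal convoluted tubule-like cells, 231, 876 and 631 CPM in principal-like cells, 90.0, 340 and 257 CPM in intercalated-like cells and 571, 2093 and 1325 CPM in endothelial-like cells. In every class replicate 1 was above replicate 2. H2-K1 is at chr17:33996017-34000347 (minus strand, GRCm38), and its relatives share sequence with it, so the split of reads among class I genes is uncertain. In proximal tubule-like cells its level was 73.0 and 63.7 CPM on day 11, near the control, after 286 to 1067 CPM on days 1 to 7. Day 11 thus lay nearer the control and days 1 to 7 nearer day 14, as with Cwc22 below. The labels give no strain, so the origin of the mice and the time after injury cannot be told apart for H2-K1.

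Interferon-stimulated genes, which are switched on by type I and II interferon against viruses, were set mostly by replicate 2. In proximal tubule-like cells 11 of 32 rose and 1 fell, where 4.51% of all tested genes rose and 5.59% fell. Lgals3bp, a secreted glycoprotein, had 2.72, 31.3 and 52.1 CPM and Ifi27 10.6, 46.6 and 307 CPM, and both were called under every alternative. Ifit1, which binds foreign RNA caps, had 0.165, 0.973 and 14.3 CPM, and Irf7, the master transcription factor of the response, 0.494, 1.87 and 9.60 CPM. In all 4 the second day 14 library was above the first. Ifih1, an RNA sensor, was the member that fell, with 13.2, 2.92 and 6.73 CPM.

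The same imbalance between the day 14 libraries appeared in each class. Summed interferon-stimulated levels were 409, 476 and 978 CPM in proximal tubule-like, 377, 546 and 2038 CPM in thick ascending limb-like, 1120, 2098 and 4468 CPM in principal-like and 5100, 5288 and 13698 CPM in endothelial-like cells. In endothelial-like cells replicate 1 was thus close to the control. Rises numbered 8 of 32 in thick ascending limb-like, 9 of 32 in principal-like and 5 of 32 in endothelial-like cells, where 0.987%, 0.955% and 0.597% of all tested genes rose. Without day 14 replicate 2 they numbered 3 in proximal tubule-like, 0 in thick ascending limb-like, 1 in principal-like and 0 in endothelial-like cells, and without replicate 1 21, 22, 21 and 16. The highest sum in proximal tubule-like cells, 7909 CPM, was on day 2.

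The core of the interferon-stimulated response element, written as GAAANNGAA on either strand, was in the 250 bases before the start of 13 of 24 matched list genes and of 2342 of all 32851 RefSeq promoters (7.13%). Here too a list gene counted if any of its promoters held a match, so the units differ. The windows of Ifit3 and Ifit3b share most of their sequence. Isg15, a ubiquitin-like modifier, and Oas1a, which makes a messenger that activates RNA decay, are shown because both rose in thick ascending limb-like and principal-like cells. Isg15 had 9.14, 24.4 and 185 CPM in principal-like cells and Oas1a 2.61, 12.9 and 90.9 CPM. Both windows are on the minus strand of GRCm38.p6, at chr4:156200819-156201068 and chr5:120907526-120907775, with 3 and 2 overlapping matches in capitals. A match describes the letters and no factor was measured.
Isg15: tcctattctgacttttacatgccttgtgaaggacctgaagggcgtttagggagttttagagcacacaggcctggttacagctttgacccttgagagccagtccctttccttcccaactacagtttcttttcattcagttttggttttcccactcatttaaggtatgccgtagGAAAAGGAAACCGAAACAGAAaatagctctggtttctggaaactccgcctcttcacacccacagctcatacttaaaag
Oas1a: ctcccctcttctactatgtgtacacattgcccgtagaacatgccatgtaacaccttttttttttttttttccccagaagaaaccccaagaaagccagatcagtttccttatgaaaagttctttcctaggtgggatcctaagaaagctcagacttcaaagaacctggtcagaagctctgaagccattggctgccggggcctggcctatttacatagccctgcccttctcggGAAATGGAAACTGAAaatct

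**Figure D3:**
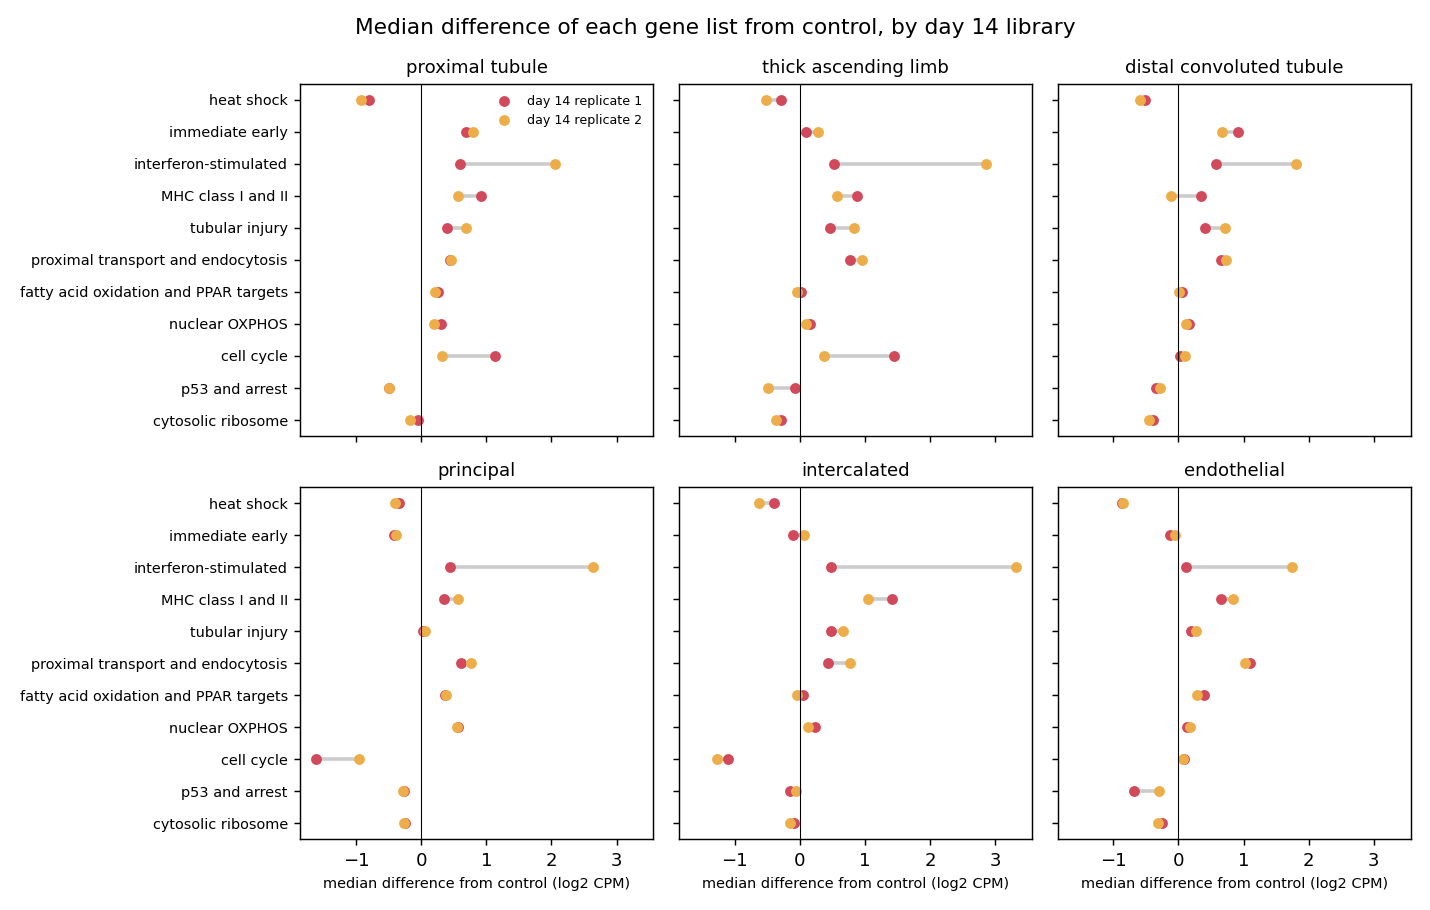
Median log2 CPM difference from the control over the tested genes of 11 fixed lists, in 6 gated classes; red points are day 14 replicate 1, yellow points replicate 2 and the grey bar joins them. Heat shock medians lie left of 0 in both libraries, and the interferon-stimulated list shows the widest gap between the libraries, with replicate 2 to the right.

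Beyond the lists, the largest rises in proximal tubule-like cells were mixed in function. Cxcl12, a chemokine that guides leukocytes and progenitor cells, had 13.8, 176 and 113 CPM (log2 difference 3.39, SE 0.41), a level no other library after injury reached: the next highest was 41.6 CPM on day 4. Hao2, a peroxisomal hydroxyacid oxidase, had 131, 647 and 1215 CPM and Hebp1, a haem-binding protein, 8.57, 92.4 and 63.0 CPM. Gstk1, a mitochondrial glutathione transferase, had 26.1, 134 and 104 CPM, and G0s2, an inhibitor of triglyceride breakdown, 24.8, 89.5 and 144 CPM. Cell cycle genes gave 3 rises and 0 falls of 26, where 4.51% of all tested genes rose: Ccnd1 (cyclin D1) had 284, 795 and 608 CPM, Tyms (thymidylate synthase) 3.62, 18.3 and 20.0 CPM and Mcm2 (replication licensing) 1.24, 5.91 and 5.50 CPM. Over the alternatives run, rises in this list ranged from 0 to 7 and falls from 0 to 1, and none of these 3 genes was called under every alternative.

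The largest falls included Il11ra1, the receptor of interleukin 11, with 202, 44.2 and 39.0 CPM (log2 difference -2.28, SE 0.21, adjusted p = 8.26e-05 by edgeR quasi-likelihood with the Benjamini-Hochberg method). Slco1a4 and Slco1a5, organic anion carriers, had 114, 25.1 and 14.9 CPM and 125, 28.5 and 17.2 CPM, and their sequences are alike, so the split between them is uncertain. Angptl7 had 1125, 278 and 250 CPM and Arhgap5, a GTPase-activating protein, 727, 202 and 165 CPM. All 5 were called under every alternative. Each of the 5 was also below the control in all 9 libraries after injury. Tnfsf10 (TRAIL, a death ligand) fell from 23.5 to 0.524 and 0.985 CPM. Genes of xenobiotic, NRF2 and metal handling gave 5 rises and 3 falls of 48, where 4.51% of all genes rose and 5.59% fell. Of the 48, 27 were above and 12 below the control in both day 14 libraries, against 42.1% and 42.3% of all genes, with a median log2 difference of 0.22. The rises included Sult1c2, a sulfotransferase, with 104, 287 and 292 CPM. Those that fell were Hmox1 (haem oxygenase 1), Gclc and Gsr, enzymes of the antioxidant response, from 15.0 to 6.36 and 6.15 CPM, from 212 to 109 and 96.3 CPM and from 210 to 101 and 98.0 CPM. The arrest gene Cdkn1a (p21) fell from 11.1 to 4.12 and 4.84 CPM.

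RNAs that are not typical messengers also fell. Gm26924, annotated as non-coding and resembling ribosomal RNA, had 5015, 655 and 509 CPM, and the mitochondrial ribosomal RNA mt-Rnr1 17118, 3803 and 3450 CPM. In contrast mt-Nd1, a complex I subunit next to the ribosomal genes on the mitochondrial genome, rose from 5088 to 11796 and 15068 CPM. Summed over 15 mitochondrial genome genes the level was 287559, 194059 and 210272 CPM, so the total was lower on day 14, although 11 of the 15 genes were above the control in both day 14 libraries and 4 below, against 42.1% and 42.3% of all tested genes, with a median log2 difference of 0.71. Of the 15, mt-Nd1 rose and mt-Rnr1 fell. mt-Nd1 lost its call without either day 14 library, and Gm26924 and mt-Rnr1 were called under every alternative. All alternatives used the same 1 control library. For Gm26924 and mt-Rnr1 a peculiarity of that library and a lasting fall after injury therefore cannot be told apart.

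The levels on the other days were set beside those of day 14, with the same 1 control library. For 199 of the 631 rises (31.5%) and 323 of the 782 falls (41.3%) in proximal tubule-like cells, each of the 7 other libraries also differed from the control. The difference was at least 1.5-fold in the same direction. For these genes the 1 control library stood apart from all 9 libraries after injury, and why was not tested. For 97 rises (15.4%) and 90 falls (11.5%) day 14 lay beyond every other library, as with Cxcl12, Slc15a2, Slc13a2, Ccnd1 and, among falls, Hspa1b, Hmox1, Cdkn1a and Tnfsf10. These groups can overlap.

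A further group did not follow time. For 52 of the 631 rises and 40 of the 782 falls in proximal tubule-like cells the day 11 libraries lay nearer the control and days 1 to 7 nearer day 14. In the libraries of each fit these numbers were 21 of 113 and 14 of 106 in thick ascending limb-like cells. They were 20 of 132 and 32 of 262 in distal convoluted tubule-like and 28 of 100 and 2 of 131 in principal-like cells. Intercalated-like cells had 4 of 7 and 1 of 11, and endothelial-like cells 11 of 51 and 7 of 83. Cwc22, a splicing factor, had 13.8 CPM in control proximal tubule-like cells, 11.6 and 9.94 CPM on day 11, 71.1 to 189 CPM on days 1 to 7, and 97.8 and 88.9 CPM on day 14. The non-coding AA465934, named after its values were seen, had 46.3 CPM in the control, 59.6 and 33.2 CPM on day 11, and at most 2.32 CPM in the others. Cwc22 rose in all 6 classes, with for example 19.5, 227 and 168 CPM in thick ascending limb-like and 18.0, 265 and 180 CPM in intercalated-like cells, and AA465934 fell in all 6. Cwc22 lies at chr2:77881159-77946375 (minus strand, GRCm38), in a stretch of chromosome 2 known for copy number differences among mouse strains. The labels give no strain, so the origin of the mice and the time after injury cannot be told apart for such genes.

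**Figure D4:**
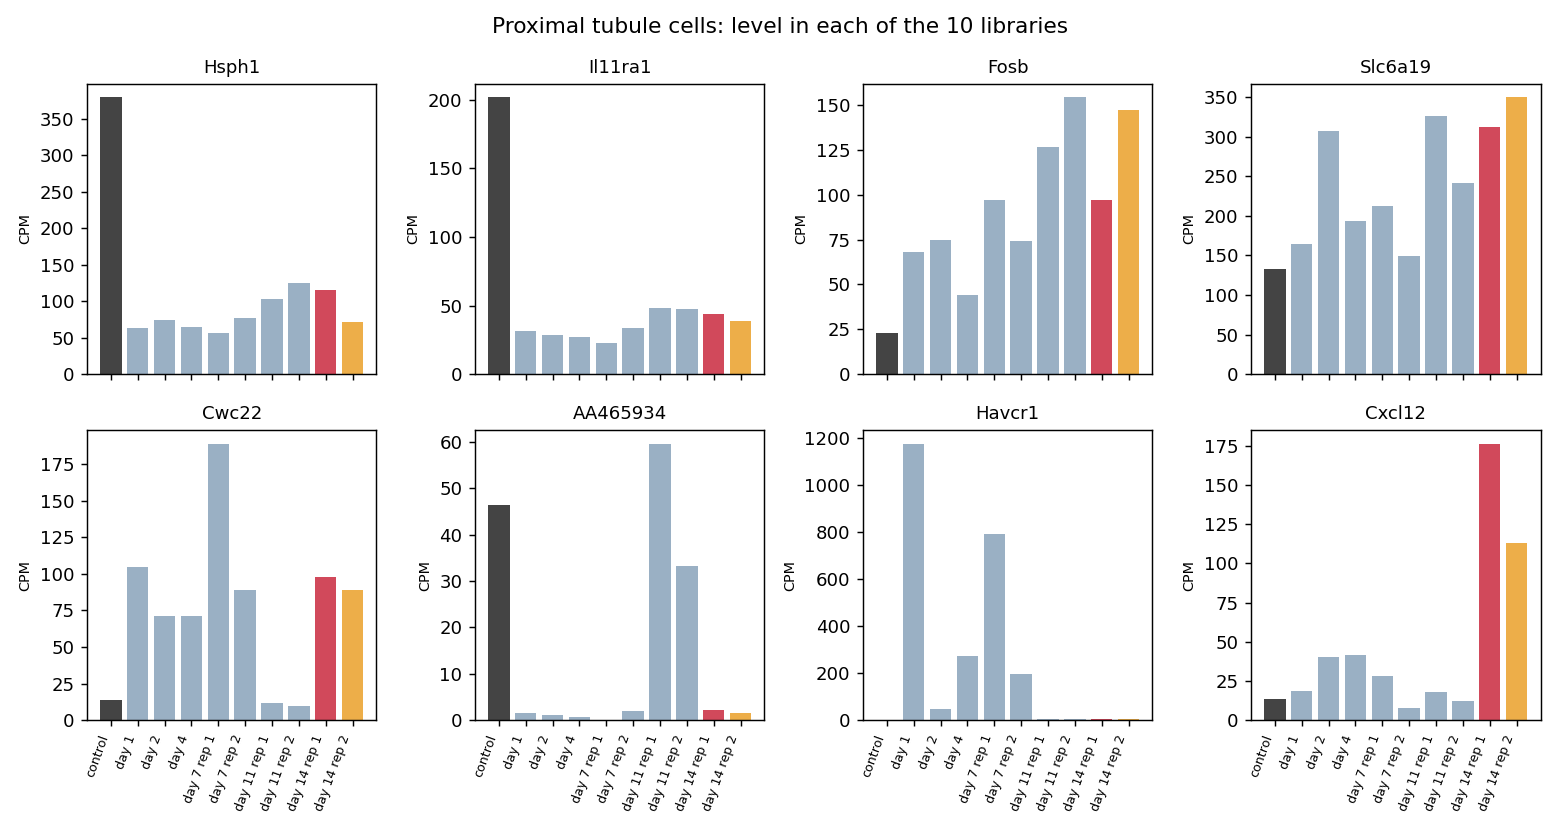
Level (CPM, linear axis from 0) of 8 genes in proximal tubule-like cells of all 10 libraries; dark grey is the control, blue-grey days 1 to 11, red and yellow the 2 day 14 libraries. Hsph1 and Il11ra1 are highest in the control, Havcr1 peaks at 1175 CPM on day 1, Cxcl12 stands out on day 14 (176 and 113 CPM), and Cwc22 and AA465934 separate the control and day 11 from the rest.

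Across the 6 classes, 4357 genes were tested in all of them. In at least 1 class 841 genes rose and 1038 fell. Counting every gene tested in 2 or more classes, at least 2 classes shared 115 rises and 219 falls, and at least 4 shared 20 and 31. Those 20 include Gm13691 and Gm13693 to Gm13698, which lie in 1 stretch of chromosome 2 (83955693-83993045, GRCm38). All classes come from the same 3 libraries, so a change shared by classes is not independent evidence. The rises shared by all 6 were Cwc22 and H2-K1, and the falls were AA465934, Arhgap5, Gm20417 and Gm26924, named here because they are all of their kind.

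Thick ascending limb-like cells had 113 rises (0.987% of 11449 genes) and 106 falls (0.926%) from 726, 410 and 398 cells. Without day 14 replicate 2 these counts were 41 and 25, without replicate 1 96 and 61, and without a day 7 library 261 to 286. Gstt1, a glutathione transferase, had 32.2, 244 and 279 CPM and Slc15a2 44.0, 197 and 162 CPM. Syn3, a synapsin whose intron holds the gene Timp3, fell from 251 to 51.5 and 41.1 CPM, and Timp3, an inhibitor of matrix proteases, from 1239 to 405 and 356 CPM. Whether the counting used strand is not given in the sources used here, so reads of these overlapping genes cannot be told apart. Angptl4, which rose in proximal tubule-like cells, fell here from 23.9 to 0 and 2.74 CPM. Haemoglobin genes also passed, but 1 cell of replicate 2 held 91.7% to 94.4% of the UMIs of each of 4 such genes there. In replicate 1 the highest cell held 7.14% to 10.3% of them, and the summed level of the erythroid genes was 5.02, 101 and 1464 CPM. Median UMIs of the class were 3916.5, 2347.5 and 2578, and proximal markers averaged 0.0572%, 0.0857% and 0.104% of UMIs. The proximal gene Slc6a19 had 7.95, 25.4 and 26.0 CPM here, and the part of proximal RNA in that rise was not tested.

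Distal convoluted tubule-like cells had 132 rises (1.91% of 6897 genes) and 262 falls (3.8%) from 338, 342 and 241 cells. Day 2 and both day 7 libraries had under 50 such cells and were not in the fit, which left 2 degrees of freedom. DESeq2 called 12 and 11, and without a day 11 library rises numbered 249 or 296 and falls 314 or 477. Epb4.1l3, a membrane skeleton protein, had 9.87, 67.4 and 126 CPM and Gstt1 36.4, 272 and 282 CPM. Sostdc1, a BMP and Wnt inhibitor made in the distal nephron, had 492, 910 and 1172 CPM. Abca13 fell from 258 to 21.7 and 19.1 CPM (log2 difference -3.64, SE 0.21), and Chka, a choline kinase, from 341 to 86.0 and 62.5 CPM. These 5 were called under every alternative. Of 108 cytosolic ribosome genes 14 fell and 0 rose, yet DESeq2 called 0 of them. Over the alternatives run, their median log2 difference ranged from -0.46 to -0.39. Over all tested genes of the class the median was -0.03. Haemoglobin genes came from 1 cell in each day 14 library, which held 90.6% to 94.3% of the UMIs of each of 4 such genes in replicate 1 and 92.2% to 93.9% in replicate 2.

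Principal-like cells had 100 rises (0.955% of 10475 genes) and 131 falls (1.25%) from 225, 268 and 346 cells. Without day 14 replicate 2 these counts were 59 and 68, without replicate 1 96 and 86, without day 11 replicate 2 64 and 101, and without a day 7 library 288 to 340. Sgk1, the aldosterone-induced kinase that holds the sodium channel at the membrane, had 22.2, 279 and 196 CPM (log2 difference 3.41, SE 0.50, adjusted p = 0.000172 by edgeR quasi-likelihood with the Benjamini-Hochberg method) and was called under every alternative. Rap1gap, a regulator of Rap1, had 7.84, 72.0 and 95.2 CPM, and Gm7325, also known as myomixer, a small muscle fusion protein, 2.61, 121 and 102 CPM. Tnfsf10, which fell in proximal tubule-like cells, rose here from 3.92 to 41.1 and 31.0 CPM. Ly6e, a membrane protein of the interferon list, had 680, 1525 and 2109 CPM. Of 25 cell cycle genes 5 fell, but 1 control cell held 80.0% of the Mki67 and 65.1% of the Top2a UMIs, and DESeq2 called 0. Proximal markers averaged 0.0648%, 0.0951% and 0.110% of UMIs in this class.

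Intercalated-like cells had 7 rises (0.145% of 4840 genes) and 11 falls (0.227%) from 121, 102 and 73 cells; DESeq2 called 0 in either direction, and 453 genes had an unadjusted p below 0.05 in the edgeR fit. Falls numbered 5 and 6 without day 14 replicate 1 or 2 and 30 and 31 without day 7 replicate 1 or 2, and rises 18 and 33 without the latter. Habp2, a plasma protease, had 3.0, 67.2 and 122 CPM and Scg5, a secretory granule chaperone, 12, 105 and 135 CPM. Among genes with an average of at least 5 log2 CPM, 366 of 4035 (9.07%) were at least 2-fold apart between the day 14 libraries, against 88 (2.18%) and 95 (2.35%) that were 2-fold above or below the control in both. The corresponding numbers in endothelial-like cells were 401 of 5073 (7.9%), against 127 (2.5%) and 125 (2.46%). Each day 14 library alone was 2-fold from the control in 457 and 519 genes in intercalated-like and in 500 and 730 in endothelial-like cells.

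Endothelial-like cells had 51 rises (0.597% of 8541 genes) and 83 falls (0.972%) from 294, 250 and 170 cells, and DESeq2 called 3 in each direction. Without day 14 replicate 1 or 2 falls numbered 45 or 38. Rock2, a kinase that acts on the actin cytoskeleton, fell from 536 to 143 and 110 CPM, and Aqp1, a water channel of descending vasa recta as well as of proximal tubule, from 126 to 31.1 and 28.8 CPM. H2-Q2 and H2-Q10, class I relatives that are hard to separate by sequence, had 3.87, 118 and 62.4 CPM and 15.5, 156 and 62.4 CPM. Dbp, an output gene of the circadian clock, had 7.74, 246 and 43.2 CPM, and in thick ascending limb-like cells 14, 116 and 45.9 CPM; in both classes the day 14 libraries differed from each other. Of 6 tested proximal straight segment genes 3 rose, with Slc7a13 at 19.3, 140 and 86.4 CPM. Over the alternatives run, rises in that list ranged from 0 to 3, and Slc7a13 was not called under every alternative. Proximal markers averaged 0.125%, 0.214% and 0.191% of UMIs in these cells, and their part in these rises was not tested.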

How the data were processed

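Drop-seq libraries of mouse kidney cortex were used as the deposited tables of UMI counts per gene and barcode, not normalized. Per the submitters' processing notes, Bowtie2 2.2.7 and the build mm10 were used; filters and strand use are not given in the sources used here. Barcodes needed 500 detected genes or more, could carry up to 50% mitochondrial UMIs, and were gated with 12 marker lists: at least 3 UMIs from 2 genes and a share of at least 2 times the mean over the 3 libraries (proximal list: 5 UMIs and 0.5 times). Barcodes that passed several lists were left out.

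Counts were summed per class and library, for libraries with at least 50 cells, filtered with filterByExpr, scaled by TMM and tested with edgeR 4.0.16 (R 4.3.3; glmQLFit and glmQLFTest, 1 term per group), with Benjamini-Hochberg adjustment over all genes tested in a class. A change also needed both day 14 libraries at least 1.5-fold from the control in the same direction, with 0.5 counts added. Named genes are the 12 largest called changes per direction in proximal tubule-like cells and the 5 largest in each other class with an average of at least 5 log2 CPM, called members of the lists, and a few followed genes such as Havcr1; others that carry a count are named too. The members and gene lists were chosen with earlier results of these data known. Alternatives used DESeq2 1.42.0, other filters and gates, Scrublet in scanpy 1.11.5 (Python 3.11.15), thinning to 1000 UMIs, and each replicate left out. A gene is said to be called under every alternative where each alternative that tested it called it, and alternatives in which it was not tested are passed over. Podocyte, stromal and immune classes had under 50 cells in a library and were not tested. Total counts ranged from 7091848 to 31632205 over the 10 libraries and from 19953772 in the 3 described, and intervals cover counting error only. The test scripts were tested on simulated data. Among the genes that rose in 1 class and fell in another, 1 is not reported here.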

Additional observations from a re-analysis of the deposited data

Results flagged for a closer look

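Some genes rose in 1 class and fell in another, with both day 14 libraries on the same side of the control in each, which the rule for a change requires. The difference between classes was not tested for any of them. Angptl4 had a log2 difference of 2.22 in proximal tubule-like and -4.07 in thick ascending limb-like cells, and Acot2, an acyl-CoA thioesterase of the same list, 1.28 and -1.12. Tnfsf10 had -4.94 in proximal tubule-like and 3.15 in principal-like cells. Id1, an inhibitor of differentiation factors, had 1.03 in proximal tubule-like and -2.46 in principal-like cells, and St6galnac2, a sialyltransferase, 1.13 and -1.54. Egr1 had 1.54 in distal convoluted tubule-like and -0.85 in principal-like cells. No gene checked was called under every alternative in both of its classes. Angptl4 was so only in thick ascending limb-like cells, Tnfsf10 only in proximal tubule-like cells, and Acot2 and Egr1 in neither class. Id1 and St6galnac2 were not followed through the alternatives.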

How the results depend on the processing

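Counts are given as genes higher and genes lower on day 14. In proximal tubule-like cells (631 and 782) they were 404 and 509 with DESeq2, 958 and 894 with no filter on low counts, 1111 and 1297 with only the control and day 14 libraries, 73 and 65 in cells with no straight-segment UMI, and 317 to 1069 and 278 to 1140 with 1 replicate left out. In thick ascending limb-like cells (113 and 106) they were 25 and 18 with DESeq2, 221 and 339 with no filter, 442 and 553 with only 3 libraries, 73 and 53 with mitochondrial UMIs at most 25%, and 41 to 265 and 25 to 286 with 1 replicate left out. In distal convoluted tubule-like cells (132 and 262) they were 12 and 11 with DESeq2, 211 and 390 with no filter, 362 and 443 with only 3 libraries, 225 and 425 with the stricter gate, 39 and 60 with mitochondrial UMIs at most 25%, 358 and 410 without both day 11 libraries, and 125 to 296 and 175 to 477 with 1 replicate left out. In principal-like cells (100 and 131) they were 35 and 32 with DESeq2, 189 and 203 with no filter, 307 and 380 with only 3 libraries, 83 and 236 with the stricter gate, and 59 to 340 and 68 to 315 with 1 replicate left out. In intercalated-like cells (7 and 11) they were 0 and 0 with DESeq2, 12 and 16 with no filter, 48 and 110 with only 3 libraries, 8 and 7 without both day 11 libraries, and 7 to 33 and 5 to 31 with 1 replicate left out. In endothelial-like cells (51 and 83) they were 3 and 3 with DESeq2, 96 and 183 with only 3 libraries, and 39 to 64 and 38 to 92 with 1 replicate left out. The cause of these moves was not tested.

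With mitochondrial UMIs at most 25%, the control and mean day 14 shares were 62.3% and 76.6% for proximal tubule-like, 4.46% and 3.22% for thick ascending limb-like, 2.17% and 1.96% for distal convoluted tubule-like, 0.952% and 0.896% for intercalated-like and 8.30% and 4.22% for endothelial-like cells. Proximal shares were 57.0% and 70.6% with the stricter gate and 59.9% and 73.2% without the highest 5% of doublet scores. In proximal cells with no straight-segment UMI the log2 difference reversed for Anxa1 (-0.74), Ccng1 (0.14), Gclc (1.10) and Ifih1 (0.72), and with the stricter gate that of Hba-a2 in endothelial-like cells did (-2.65). Of the called genes open to naming, 28 of 128 in proximal tubule-like cells, 15 of 51 in thick ascending limb-like, 12 of 57 in distal convoluted tubule-like, 15 of 55 in principal-like, 0 of 12 in intercalated-like and 3 of 41 in endothelial-like cells were called under every alternative that tested them. The fit without both day 11 libraries was chosen after seeing the data. Intercalated-like cells at most 25% mitochondrial were not run, since a library had under 50 such cells. No paired analysis was possible because the control is 1 library with no replicate number. Small classes and low-count genes limit precision: a count of 0 in a class sum cannot separate absence from low capture.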
